A study of Homo sapiens with 9 samples.

Results

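Selenoproteins are proteins that carry selenocysteine, the amino acid in which selenium takes the place of the sulphur of cysteine. The genes described here are 3 glutathione peroxidases (GPX1, GPX3 and GPX4) and 5 further selenoproteins (SELENOP, SELENOW, SELENOM, SELENOH and SELENOK). They were chosen by name, and every probe set whose array annotation gave 1 of these symbols and no other was taken. This gave 17 probe sets for the 8 genes, of 54613 probe sets and 19775 genes measured. GPX1, GPX4, SELENOM and SELENOK had 1 probe set each, GPX3 and SELENOW had 2, SELENOP had 3 and SELENOH had 6.

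RNA came from Rh30, a human cell line of fusion-positive rhabdomyosarcoma (FP-RMS) that carries the PAX3-FOXO1 fusion, grown in 3 ways with 3 arrays each. The xenografts were tumors in immunodeficient SCID/beige mice, whose lymphocytes are lacking but whose stromal and myeloid cells remain. The spheres were collected after 48 h in Neurobasal medium that held insulin at 50 µg/ml, EGF at 40 ng/ml, bFGF at 80 ng/ml and the serum-free supplement B27 at 1X. The adherent cells grew as a monolayer in an RPMI medium with 10% FBS. All 9 arrays thus come from 1 cell line, and the study describes the groups as biological triplicates.

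The sources differ on how the tumors were made. The sample labels describe subcutaneous implants in Matrigel, of cells from either culture, whereas the methods of the study describe adherent cells injected into the gastrocnemius muscle for the arrays. Attachment, serum and the additives of the medium changed together between spheres and adherent cells, so their parts in a difference cannot be told apart, and the selenium content of the media was not measured. Mouse RNA can reach these human probes only by cross-hybridization.

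In a selenoprotein mRNA a UGA codon, elsewhere a stop, is read as selenocysteine when a stem-loop in the 3′ untranslated region (the SECIS element) recruits SECISBP2 and the elongation factor EEFSEC. The glutathione peroxidases use glutathione to reduce hydrogen peroxide and lipid hydroperoxides. GPX4 acts on lipid hydroperoxides within membranes, and its loss leads to ferroptosis, a cell death driven by iron and oxidized lipid. SELENOP is secreted and carries selenium between tissues, SELENOW and SELENOH are small redox proteins of the cytosol and the nucleus, and SELENOM and SELENOK belong to the endoplasmic reticulum (ER).

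The promoters of the 4 genes on which the results turn are shown because their mRNAs moved in different patterns: GPX4 fell in spheres, SELENOK rose there, SELENOP fell on 1 probe set in both other growth forms, and SELENOW rose in xenografts. Each line gives the 250 bases before the annotated start on the gene's own strand, from RefSeq on GRCh38.p14, with motif matches in capitals. The windows are chr19:1103744-1103993 for GPX4 (plus strand; the first of 3 annotated starts), chr3:53891860-53892109 for SELENOK (minus strand), chr5:42811893-42812142 for SELENOP (minus strand) and chr19:47778453-47778702 for SELENOW (plus strand).
GPX4: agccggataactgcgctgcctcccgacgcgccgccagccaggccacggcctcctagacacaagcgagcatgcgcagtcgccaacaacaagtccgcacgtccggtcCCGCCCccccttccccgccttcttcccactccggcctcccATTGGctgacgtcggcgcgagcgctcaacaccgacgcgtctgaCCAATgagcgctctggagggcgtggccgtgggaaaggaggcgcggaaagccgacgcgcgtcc
SELENOK: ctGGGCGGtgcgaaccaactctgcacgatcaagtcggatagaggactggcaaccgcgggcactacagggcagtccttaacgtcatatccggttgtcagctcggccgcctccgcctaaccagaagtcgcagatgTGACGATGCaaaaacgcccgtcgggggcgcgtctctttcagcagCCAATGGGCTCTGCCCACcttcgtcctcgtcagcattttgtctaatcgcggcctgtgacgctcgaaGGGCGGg
SELENOP: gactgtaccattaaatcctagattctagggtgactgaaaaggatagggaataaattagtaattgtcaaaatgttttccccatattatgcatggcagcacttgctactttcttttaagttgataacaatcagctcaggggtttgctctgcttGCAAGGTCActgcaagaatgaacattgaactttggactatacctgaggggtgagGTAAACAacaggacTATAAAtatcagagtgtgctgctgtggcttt
SELENOW: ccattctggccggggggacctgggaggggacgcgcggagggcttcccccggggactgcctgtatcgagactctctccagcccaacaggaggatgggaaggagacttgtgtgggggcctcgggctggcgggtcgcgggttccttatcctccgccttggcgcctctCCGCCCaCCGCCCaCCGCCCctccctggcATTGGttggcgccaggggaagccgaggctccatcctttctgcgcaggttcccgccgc

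Both strands were searched, so a capital run may be the reverse complement of the motif as spelled here. GPX4 held the CCAAT box (CCAAT) at 2 places and the GC box (GGGCGG) at 1 in the window shown. The windows of its other starts held CCAAT at 3 and 0 places and GGGCGG at 1 and 4. SELENOW held CCAAT once and GGGCGG at 3 places, side by side. SELENOP, the only one of these 4 windows without a GC box, held the TATA box (TATAAA), the forkhead motif GTAAACA and the core of the antioxidant response element (TGACNNNGC), once each. SELENOK held GGGCGG at 2 places, TGACNNNGC once and CCAAT once, and that CCAAT opens a shortened form of the ER stress element, in which CCAAT and CCAC are set apart by 9 bases of any kind. The full element, which ends in a further G, was not matched in any of the 4.

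These letters occur in many promoters. Of 35116 RefSeq promoter windows of 250 bases, 42.6% held GGGCGG, 32.0% held CCAAT, 10.9% held TGACNNNGC, 10.7% held TATAAA and 2.98% held GTAAACA. The shortened ER stress element was in 0.282% and the full one in 0.0740%. GPX1 and SELENOH each held 1 E-box (CACGTG, in 6.34% of windows), GPX3 held CCAAT at 2 places, and SELENOM was not matched to a window. A match describes the letters only, and no binding was measured.

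Values are log2 RMA values per probe set, for which a difference of 1 is a doubling, and the array medians lay between 4.78 and 4.87. A probe set was called changed where the adjusted p of limma over all 54613 probe sets was under 0.05. The FP-RMS marker genes, among them MYOD1, MYOG and FGFR4, averaged 10.26 to 10.32 in xenografts, 9.71 to 9.75 in spheres and 10.27 to 10.36 in adherent cells, high in every array, although 5 of the 10 genes fell in spheres. Over all genes, 16.3% fell in spheres against adherent cells. As a measure of RNA integrity, the 3′ probe set of ACTB exceeded its 5′ probe set by 2.30 to 2.75 in xenografts, 3.15 to 3.31 in spheres and 2.07 to 2.67 in adherent cells, so the gap was wider in every sphere array. The same gap for GAPDH overlapped among the groups (0.41 to 0.64 in xenografts, 0.59 to 0.67 in spheres and 0.42 to 0.68 in adherent cells). Xenografts also had higher adult skeletal muscle markers (mean of 12 genes 5.34 to 5.55, against 4.51 to 4.59 in spheres and 4.71 to 4.79 in adherent cells) and fibroblast markers (mean of 10 genes 6.27 to 6.55, against 5.60 to 5.77 and 5.71 to 5.86). The median of all genes was 0.13 higher in xenografts than in spheres, 0.08 higher in xenografts than in adherent cells and 0.04 lower in spheres than in adherent cells. In RNA from whole tumors, more cells of a type and more RNA per cell cannot be told apart. The part of RNA integrity and of other cells in the results that follow was not tested.

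GPX4, the lipid hydroperoxidase, had the widest range of group means of the 8 genes, each on its brightest probe set, with a fall in spheres and a rise in xenografts. Its probe set 201106_at read 11.00, 10.78 and 10.79 in xenografts, 9.54, 9.67 and 9.59 in spheres, and 10.34, 10.31 and 10.49 in adherent cells. The 3 groups did not overlap: xenografts were highest, adherent cells stood between, and spheres were lowest. Spheres were 0.78 lower than adherent cells (SE 0.10, log2 change -0.78, 0.583-fold, adjusted p = 1.04e-04). Xenografts were 0.48 higher than adherent cells (SE 0.10, 1.39-fold, adjusted p = 0.00468) and 1.26 higher than spheres (95% interval 1.04 to 1.47, 2.39-fold, adjusted p = 2.40e-06). By the methods' t-test after adjustment, the rise over adherent cells was lost (adjusted p = 0.0581). The gene lies on chromosome 19 (chr19:1103994-1106779).

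GPX1, the abundant peroxidase of the cytosol and mitochondria (chr3:49357176-49358353), differed in xenografts by a smaller step. Its probe set 200736_s_at read 10.75, 10.91 and 10.92 in xenografts, 10.48, 10.44 and 10.47 in spheres, and 10.57, 10.42 and 10.67 in adherent cells. Every xenograft array was above every culture array, while spheres and adherent cells overlapped. Xenografts were 0.40 higher than spheres (SE 0.10, 1.32-fold, adjusted p = 0.00713) and 0.30 higher than adherent cells (SE 0.10, 1.24-fold, adjusted p = 0.0420). The second of these calls stood at the threshold: it was lost when each array was centred on its median (adjusted p = 0.0731), when the sphere arrays were left out of the fit (adjusted p = 0.0786), and without any 1 of 7 single arrays (highest adjusted p = 0.165, without adherent replicate 2). Spheres minus adherent cells gave -0.09 (95% interval -0.31 to 0.12, adjusted p = 0.576).

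GPX3, the secreted peroxidase of plasma (chr5:151020591-151028988), went the other way in xenografts. Probe set 201348_at read 4.61, 4.86 and 5.01 in xenografts, 5.33, 5.34 and 5.11 in spheres, and 5.28, 5.29 and 5.52 in adherent cells. Every xenograft array lay below the cultures. The xenograft mean, 4.83, was within the range of the array medians (4.78 to 4.87), so this probe set was not bright either. Xenografts were lower than adherent cells by 0.54 (SE 0.12, log2 change -0.54, 0.690-fold, adjusted p = 0.00876) and lower than spheres by 0.43 (SE 0.12, log2 change -0.43, 0.741-fold, adjusted p = 0.0161). The call against spheres was lost without spheres replicate 2 (adjusted p = 0.0589), and by the methods' t-test after adjustment both calls were lost (adjusted p = 0.103 against adherent cells and 0.109 against spheres). Spheres and adherent cells overlapped (log2 difference -0.10, 95% interval -0.37 to 0.16). The other GPX3 probe set, 214091_s_at, below the median brightness of the array, was not called in any comparison: it averaged 4.50 ± 0.27 in xenografts, 4.47 ± 0.04 in spheres and 4.71 ± 0.13 in adherent cells (SD, n = 3 each).

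**Figure D1:**
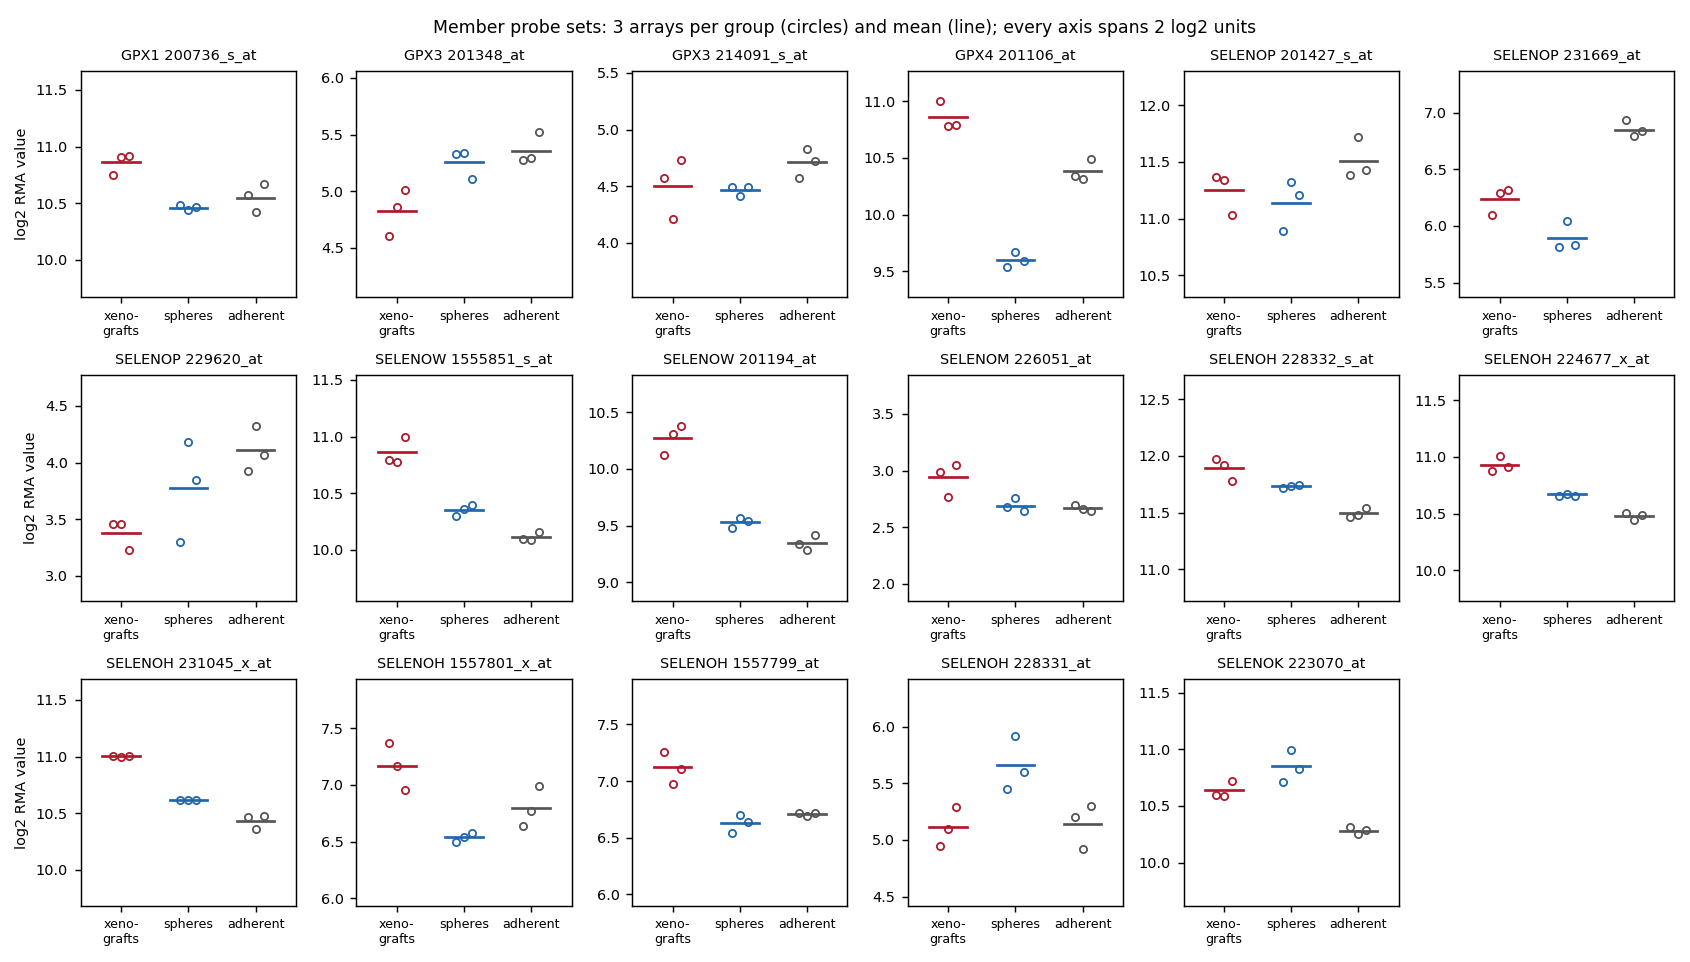
Each panel shows 1 of the 17 probe sets, with log2 RMA values on an axis of 2 log2 units, circles for the 3 arrays of xenografts, spheres and adherent cells and a line for the mean. The groups of GPX4 are fully apart, with spheres at 9.54 to 9.67 and xenografts at 10.78 to 11.00, whereas the xenograft and sphere circles of the SELENOP probe set 201427_s_at overlap, both below adherent cells at 11.38 to 11.72.

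SELENOP, the selenium carrier (chr5:42799880-42811892), gave different results on its 3 probe sets. The brightest, 201427_s_at, read 11.37, 11.34 and 11.03 in xenografts, 10.89, 11.32 and 11.21 in spheres, and 11.38, 11.72 and 11.43 in adherent cells. Its sphere and xenograft arrays overlapped, and the highest xenograft array was 11.37 where the lowest adherent array was 11.38. It was not called in any comparison (spheres minus adherent cells -0.37, 95% interval -0.68 to -0.06, adjusted p = 0.0796; xenografts minus adherent cells -0.26, adjusted p = 0.206), although the first was called with a variance trend and robust estimation (adjusted p = 0.0448). Probe set 231669_at read 6.10, 6.29 and 6.32 in xenografts, 5.81, 6.04 and 5.83 in spheres, and 6.93, 6.79 and 6.84 in adherent cells. Here adherent cells were above every other array. Spheres were lower than adherent cells by 0.96 (SE 0.10, log2 change -0.96, 0.514-fold, adjusted p = 3.08e-05) and xenografts were lower by 0.62 (SE 0.10, log2 change -0.62, 0.651-fold, adjusted p = 0.00127). Xenografts were 0.34 above spheres (adjusted p = 0.0207), a call lost without any 1 of spheres replicates 1 and 3 and xenografts replicates 2 and 3 (adjusted p up to 0.0785).

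The dim probe set 229620_at read 3.46, 3.46 and 3.23 in xenografts, 3.30, 4.18 and 3.85 in spheres, and 3.93, 4.32 and 4.07 in adherent cells. Xenografts were below adherent cells on every array, and spheres spread over both. Xenografts were 0.605-fold of adherent cells (log2 change -0.73, SE 0.19, adjusted p = 0.0169), a call lost without adherent replicate 2 (adjusted p = 0.0780) or xenografts replicate 3 (adjusted p = 0.0573). Xenografts minus spheres gave -0.40 (adjusted p = 0.114), and without spheres replicate 1, the lowest of its group, -0.63 (adjusted p = 0.00735). The mean of the 3 SELENOP probe sets differed from adherent cells by -0.55 in spheres (adjusted p = 0.00386) and by -0.54 in xenografts (adjusted p = 0.00655), so the sign was shared while the size depended on the probe set.

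Cells take SELENOP up through lipoprotein receptors, of which 3 were measured. LRP8, the receptor of brain and testis in mice, averaged 7.71 ± 0.03 in xenografts, 7.01 ± 0.14 in spheres and 7.47 ± 0.01 in adherent cells, and fell in spheres (log2 change -0.46, SE 0.09, 0.727-fold, adjusted p = 0.00285). LRP1, described as the receptor of muscle in mice, averaged 6.64 ± 0.17 in xenografts, 7.85 ± 0.15 in spheres and 6.75 ± 0.06 in adherent cells, and rose in spheres (log2 change 1.10, SE 0.11, 2.14-fold, adjusted p = 2.20e-05). LRP2, the kidney receptor in mice, lay below the median brightness of the array and was not called. None of the 3 was called between xenografts and adherent cells, where 26.9% of all genes were called.

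SELENOW, a small protein with a thioredoxin-like fold that is abundant in muscle (chr19:47778703-47784682), rose in xenografts on both probe sets. Probe set 201194_at read 10.12, 10.31 and 10.38 in xenografts, 9.48, 9.57 and 9.54 in spheres, and 9.34, 9.28 and 9.42 in adherent cells. Probe set 1555851_s_at read 10.79, 10.78 and 11.00 in xenografts, 10.30, 10.36 and 10.40 in spheres, and 10.10, 10.09 and 10.16 in adherent cells. On both, the order was xenografts, spheres, adherent cells, with no overlap. Against adherent cells, xenografts were 0.92 higher on the first (SE 0.10, 1.89-fold, adjusted p = 5.82e-05) and 0.74 higher on the second (SE 0.09, 1.67-fold, adjusted p = 2.06e-04). Against spheres the rises were 0.74 (1.67-fold, adjusted p = 1.03e-04) and 0.50 (1.42-fold, adjusted p = 0.00127). The step between spheres and adherent cells was smaller and not called (0.18, adjusted p = 0.211, and 0.24, adjusted p = 0.0860). For 1555851_s_at that step was called under quantile normalization (adjusted p = 0.0413), with dim probe sets left out (adjusted p = 0.0435), with a variance trend and robust estimation (adjusted p = 0.0325), without the xenograft arrays in the fit (adjusted p = 0.0389) and without xenografts replicate 3 (adjusted p = 0.0460).

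The rise of SELENOW stands beside higher adult muscle markers in the same arrays. Of 12 such genes measured, 5 were called higher, 1 lower and 6 not in xenografts against adherent cells. Over all genes, 12.6% were called higher and 14.3% lower. The largest rises were those of ACTA1 and MYH4. ACTA1, skeletal muscle actin, averaged 8.38 in xenografts, 4.16 in spheres and 5.16 in adherent cells, and MYH4, an adult myosin, 4.70, 2.40 and 2.30 in that order. The gene called lower was MB, myoglobin, at 5.77 in xenografts, 5.74 in spheres and 6.76 in adherent cells. Its log2 change in xenografts against adherent cells was -0.99 (adjusted p = 0.0111). CKM, muscle creatine kinase, was not called in xenografts against adherent cells, at 6.39 in xenografts, 7.15 in spheres and 6.27 in adherent cells.

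SELENOH, a DNA-binding protein of the nucleolus (chr11:57741491-57743550), had 6 probe sets, of which 4 were called higher in xenografts than in adherent cells. The brightest, 228332_s_at, read 11.97, 11.92 and 11.78 in xenografts, 11.72, 11.73 and 11.74 in spheres, and 11.46, 11.48 and 11.54 in adherent cells. Its groups did not overlap, in the order xenografts, spheres, adherent cells. Xenografts were 0.40 above adherent cells (SE 0.09, 1.32-fold, adjusted p = 0.00700) and 0.16 above spheres, which was not called (adjusted p = 0.154). Spheres were 0.23 above adherent cells, also not called (adjusted p = 0.0745), although the call was made under quantile normalization (adjusted p = 0.0210), with dim probe sets left out (adjusted p = 0.0343), with a variance trend and robust estimation (adjusted p = 0.0121), without the xenograft arrays in the fit (adjusted p = 0.0382) and without xenografts replicate 3 (adjusted p = 0.0480).

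The other SELENOH probe sets did not all follow this order. Probe set 231045_x_at read 11.01, 11.00 and 11.01 in xenografts, 10.62 in each sphere array, and 10.47, 10.36 and 10.48 in adherent cells, and xenografts were 0.57 above adherent cells (SE 0.08, 1.49-fold, adjusted p = 5.13e-04). Probe sets 224677_x_at and 1557799_at rose by 0.45 and 0.41 in the same comparison (adjusted p = 0.00255 and 0.0115), while 1557801_x_at gave 0.37 and missed the threshold (adjusted p = 0.0505). That last difference was called under quantile normalization (0.51, adjusted p = 0.00948), with dim probe sets left out (adjusted p = 0.0325), with a variance trend and robust estimation (adjusted p = 0.0480), and without adherent replicate 3 (adjusted p = 0.0381) or xenografts replicate 3 (adjusted p = 0.0188). Against spheres, these 4 were all called higher in xenografts, by 0.27 to 0.63, and the smallest, 224677_x_at (adjusted p = 0.0264), was lost when the adherent arrays were left out or without any 1 of the 3 sphere arrays or xenografts replicate 2 (adjusted p up to 0.0753). The suffix x marks probe sets whose probes may also bind other transcripts.

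Probe set 228331_at ran against the rest of SELENOH. It read 4.95, 5.10 and 5.29 in xenografts, 5.45, 5.92 and 5.60 in spheres, and 5.20, 4.92 and 5.30 in adherent cells, so spheres were highest and the other groups overlapped. Spheres were 0.52 above adherent cells (SE 0.14, 1.43-fold, adjusted p = 0.0187), a call lost without adherent replicate 2 (adjusted p = 0.0889) or spheres replicate 2 (adjusted p = 0.0849). Xenografts were lower than spheres by 0.55 (log2 change -0.55, 0.685-fold, adjusted p = 0.0111). Where on the SELENOH transcripts this probe set lies is not given in the sources used here.

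SELENOK, an ER membrane protein that binds the palmitoyltransferase ZDHHC6 and takes part in the export of misfolded proteins (chr3:53884417-53891859), rose in spheres on its single probe set. Probe set 223070_at read 10.60, 10.59 and 10.72 in xenografts, 10.71, 10.99 and 10.83 in spheres, and 10.31, 10.25 and 10.29 in adherent cells. Adherent cells were below every other array, and xenografts and spheres overlapped at the edge (10.72 in xenografts, 10.71 in spheres). Spheres were 0.56 above adherent cells (SE 0.10, 1.48-fold, adjusted p = 9.19e-04). Xenografts were 0.35 above adherent cells (SE 0.10, 1.28-fold, adjusted p = 0.0209), a call lost without any 1 of the 3 adherent arrays or xenografts replicate 3 (adjusted p up to 0.0755). Xenografts minus spheres gave -0.21 (adjusted p = 0.103).

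SELENOK works beside a set of ER degradation genes, of which 9 of 10 listed were measured, and in spheres 3 of them rose and 3 fell. Over all genes, 13.5% rose and 16.3% fell in spheres against adherent cells. SELENOS, the selenoprotein that joins the same export complex, averaged 9.61 ± 0.08 in xenografts, 9.98 ± 0.01 in spheres and 9.45 ± 0.06 in adherent cells, and rose in spheres (log2 change 0.53, 1.44-fold, adjusted p = 6.53e-04). SEL1L, an adaptor of the ubiquitin ligase of the ER, rose by 0.90 (1.87-fold, adjusted p = 3.70e-05). In contrast the cytosolic segregase fell in all 3 subunits listed: UFD1 (log2 change -1.15, 0.451-fold, adjusted p = 2.33e-06), NPLOC4 (log2 change -0.81, 0.569-fold, adjusted p = 8.53e-05) and VCP (log2 change -0.55, 0.684-fold, adjusted p = 7.49e-04). The median change of the 9 genes in spheres was -0.25, beside -0.04 over all genes. In xenografts against adherent cells none rose and 3 fell, among them NPLOC4 (log2 change -0.58, adjusted p = 0.00165). The shares over all genes were 12.6% higher and 14.3% lower.

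SELENOM, a thioredoxin-like protein of the ER lumen (chr22:31104777-31107568), was near the bottom of the scale. Probe set 226051_at read 2.99, 2.77 and 3.05 in xenografts, 2.68, 2.76 and 2.64 in spheres, and 2.70, 2.66 and 2.64 in adherent cells. Xenografts were at the top without overlap, yet no comparison was called (xenografts minus adherent cells 0.27, adjusted p = 0.0651, and minus spheres 0.25, adjusted p = 0.0626). Without xenografts replicate 2 both were called (0.35, adjusted p = 0.0244, and 0.33, adjusted p = 0.0206). Spheres minus adherent cells gave 0.02.

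Counted together, 12 of the 17 probe sets were called in xenografts against adherent cells, 9 higher and 3 lower, where 23.0% of all probe sets were called (9.78% higher and 13.2% lower). In xenografts against spheres 11 were called, 9 higher and 2 lower, beside 39.1% of all probe sets (20.6% higher and 18.5% lower). In spheres against adherent cells 4 were called, 2 higher (SELENOK and SELENOH 228331_at) and 2 lower (GPX4 and SELENOP 231669_at), a share of 23.5% that is close to the 26.0% of all probe sets (13.3% higher and 12.6% lower). The groups did not overlap for 14, 13 and 12 of the 17 in that order of comparisons, beside 38.5%, 47.4% and 41.6% of all probe sets. The median difference of the 17 was 0.35, 0.27 and -0.08, beside 0.07, 0.10 and -0.02 over all probe sets. Probe sets of 1 gene share transcripts, and 6 of the 17 belong to SELENOH. By brightness, 14 of the 17 lay at or above the median of all probe sets. The shares over all probe sets also cover the dimmer ones and are not matched for brightness.

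By gene, with each gene read from its brightest probe set, 5 of the 8 rose in xenografts against adherent cells (GPX1, GPX4, SELENOW, SELENOH and SELENOK), GPX3 fell, and SELENOP and SELENOM were not called, where 26.9% of all genes were called (12.6% higher and 14.3% lower). In xenografts against spheres GPX1, GPX4 and SELENOW rose, GPX3 fell and 4 were not called, beside 44.0% of all genes (25.7% higher and 18.3% lower). In spheres against adherent cells SELENOK rose, GPX4 fell and 6 were not called, beside 29.8% of all genes (13.5% higher and 16.3% lower). The 2 comparisons with adherent cells share those 3 arrays, and the 2 with xenografts share the xenograft arrays. The shares over all genes are likewise not matched for brightness.

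**Figure D2:**
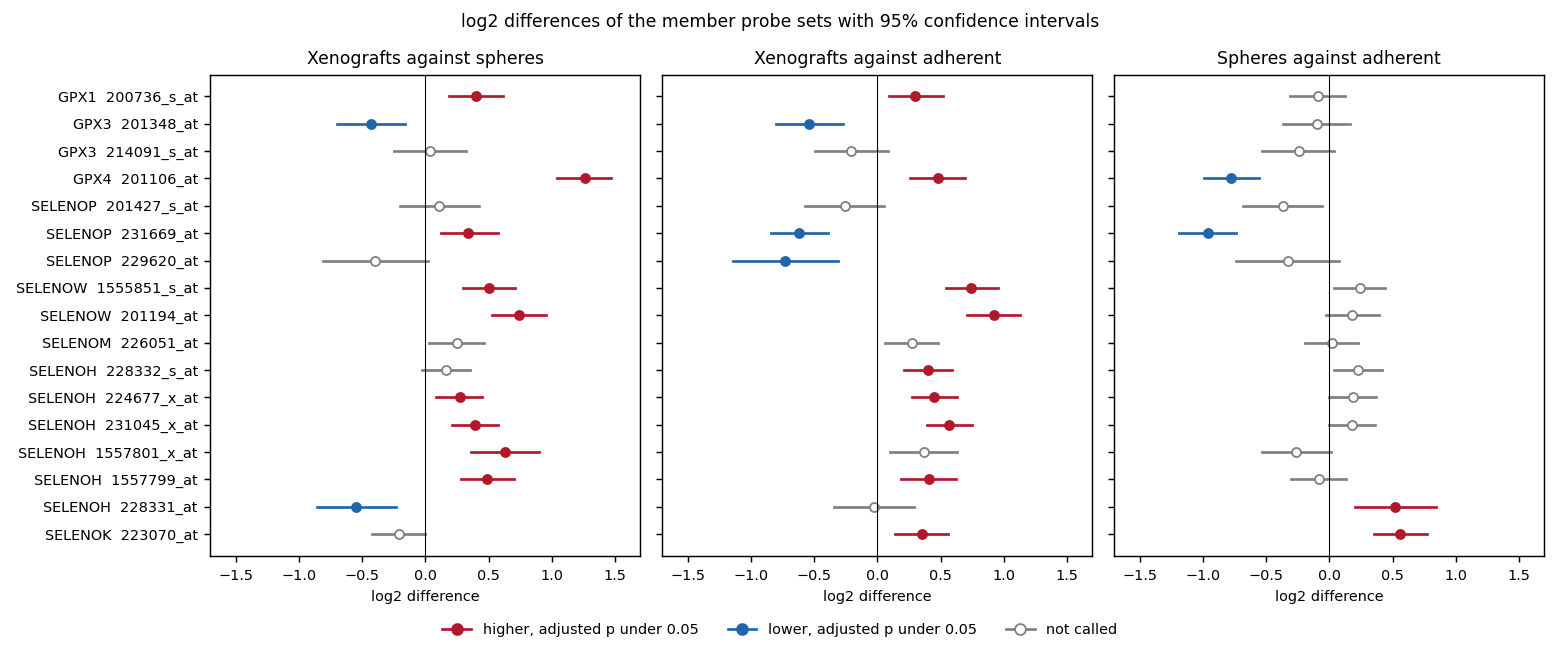
For each of the 17 probe sets, circles give the log2 difference and bars its 95% confidence interval, with xenografts against spheres, xenografts against adherent cells and spheres against adherent cells in separate panels and filled circles for adjusted p under 0.05. GPX4 lies at 1.26, 0.48 and -0.78 in the 3 panels, and 9 of 17 probe sets are filled to the right of 0 in each of the xenograft panels.

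Of 17 further genes of the human selenoproteome 14 were measured, and against adherent cells 1 rose and 3 fell in xenografts and 2 rose and 3 fell in spheres. Of all genes, 12.6% rose and 14.3% fell in xenografts and 13.5% rose and 16.3% fell in spheres. The median change was 0.08 in xenografts and -0.10 in spheres, beside 0.08 and -0.04 over all genes. Of all 22 selenoprotein genes measured, 6 rose and 4 fell in xenografts, and 3 rose and 4 fell in spheres.

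The selenoprotein that changed most in xenografts was DIO2, the deiodinase that activates thyroid hormone. It averaged 6.21 ± 0.49 in xenografts, 7.92 ± 0.22 in spheres and 8.02 ± 0.19 in adherent cells, and fell in xenografts against adherent cells (log2 change -1.81, SE 0.21, 0.284-fold, adjusted p = 1.21e-04). TXNRD2, the mitochondrial thioredoxin reductase, fell in both: its means were 5.94 ± 0.35 in xenografts, 5.73 ± 0.07 in spheres and 6.95 ± 0.05 in adherent cells, a log2 change of -1.01 in xenografts (adjusted p = 5.41e-04) and -1.22 in spheres (adjusted p = 7.13e-05). TXNRD1, its cytosolic counterpart, fell less, by 0.33 in spheres (adjusted p = 0.0229) and by 0.39 in xenografts (adjusted p = 0.0134). The second call was lost under quantile normalization, by the methods' t-test after adjustment and without adherent replicate 2 or 3. MSRB1, which reduces oxidized methionine, fell in spheres (log2 change -0.64, 0.640-fold, adjusted p = 0.00212).

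In the machinery that makes and inserts selenocysteine, spheres differed from adherent cells in both directions. Of 10 genes, 3 rose and 3 fell, and the median change was 0.02. Over all genes, 13.5% rose and 16.3% fell, with a median of -0.04. SEPHS2, which makes selenophosphate and is itself a selenoprotein, averaged 9.76 ± 0.06 in xenografts, 10.71 ± 0.01 in spheres and 9.67 ± 0.04 in adherent cells, a rise of 1.04 in spheres (SE 0.08, 2.06-fold, adjusted p = 3.85e-06). It is counted with the other selenoproteins. Its relative SEPHS1, which lacks that activity, averaged 9.95 ± 0.12 in xenografts, 9.09 ± 0.05 in spheres and 10.07 ± 0.04 in adherent cells, a fall in spheres (log2 change -0.98, 0.506-fold, adjusted p = 1.08e-05). The 2 paralogs thus moved in opposite directions in the same arrays.

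SARS1, which loads serine on the selenocysteine tRNA, rose by 1.14 in spheres (2.20-fold, adjusted p = 5.30e-05), and SEPSECS, which finishes the conversion to selenocysteine, rose by 1.13 (2.19-fold, adjusted p = 2.19e-05). SCLY, the lyase that frees selenium from selenocysteine, averaged 7.80 ± 0.24 in xenografts, 6.57 ± 0.41 in spheres and 7.72 ± 0.05 in adherent cells, and fell in spheres (log2 change -1.15, 0.451-fold, adjusted p = 5.08e-04). Against adherent cells, xenografts gave 0.08 for SARS1, -0.11 for SEPSECS, 0.08 for SCLY and -0.12 for SEPHS1, none of them called.

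Of these 10 genes, 2 rose and 1 fell in xenografts against adherent cells, where 12.6% of all genes rose and 14.3% fell. EEFSEC, the elongation factor for selenocysteine, rose by 0.54 (1.46-fold, adjusted p = 0.0100), a call lost without adherent replicate 2 and by the methods' t-test after adjustment. TRNAU1AP, a partner of the selenocysteine tRNA, rose by 0.37 (adjusted p = 0.0232) and SECISBP2L, a relative of SECISBP2, was lower by 0.75 (log2 change -0.75, SE 0.22, adjusted p = 0.0326). Both calls were lost without any 1 of the 3 adherent arrays or xenografts replicate 3, and by the methods' t-test after adjustment. That of SECISBP2L was also lost without xenografts replicate 2, under quantile normalization and by the methods' t-test unadjusted. It was lost as well with the compared groups alone and with a block for the replicate number. Against spheres, 5 of the 10 genes were higher in xenografts and 4 lower, with SCLY at a log2 change of 1.23 (adjusted p = 2.51e-04) and SEPSECS at -1.24 (adjusted p = 8.79e-06). The shares over all genes were 25.7% higher and 18.3% lower.

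**Figure D3:**
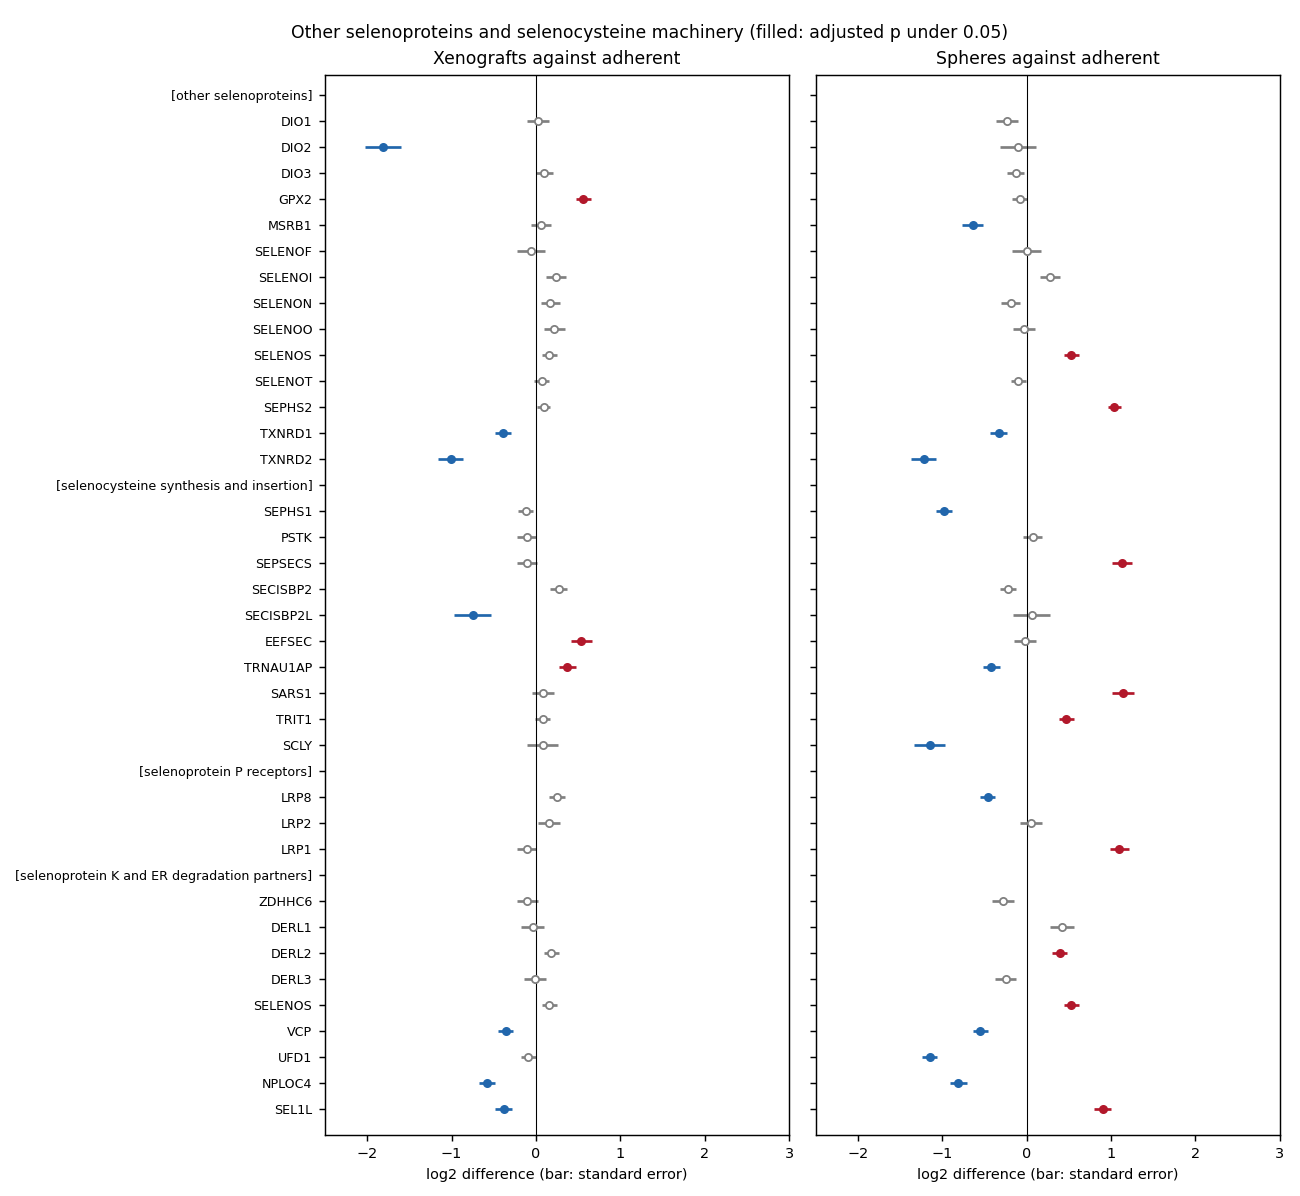
Circles give the log2 difference and bars the standard error for other selenoproteins, the selenocysteine machinery, SELENOP receptors and the ER partners of SELENOK, for xenografts and spheres against adherent cells, filled where the adjusted p was under 0.05. SEPHS2 and SEPHS1 stand on opposite sides of 0 in spheres against adherent cells, at 1.04 and -0.98.

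The glutathione peroxidases outside the selenoproteins carry cysteine in the active site. GPX7, of the ER, averaged 7.58 ± 0.31 in xenografts, 6.89 ± 0.06 in spheres and 6.74 ± 0.05 in adherent cells, and rose in xenografts against adherent cells (log2 change 0.84, SE 0.13, 1.79-fold, adjusted p = 0.00100). GPX8, also of the ER, averaged 8.74 ± 0.23 in xenografts, 9.17 ± 0.01 in spheres and 8.92 ± 0.09 in adherent cells, and was lower in xenografts than in spheres (log2 change -0.43, adjusted p = 0.0119). None of the 3 genes of this kind was called in spheres against adherent cells, where 29.8% of all genes were called.

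Of 10 genes of glutathione supply, against adherent cells 2 rose and 1 fell in xenografts, beside 26.9% of all genes called, and 1 rose and 1 fell in spheres, beside 29.8%. SLC3A2, the heavy chain of the cystine transporter, averaged 7.95 ± 0.19 in xenografts, 9.38 ± 0.08 in spheres and 7.92 ± 0.19 in adherent cells, a rise of 1.46 in spheres (2.76-fold, adjusted p = 5.17e-06). SLC7A11, its light chain, averaged 9.27 ± 0.06 in spheres and 7.45 ± 0.27 in adherent cells, which missed the threshold (log2 difference 1.82, SE 0.63, adjusted p = 0.0550). The fit shares 1 variance over the groups, and its xenograft arrays spread between 4.17 and 7.77. It was lower in xenografts than in spheres (log2 change -3.16, 0.112-fold, adjusted p = 0.00215). CHAC2, a glutathione-degrading enzyme, fell in spheres (log2 change -1.43, 0.370-fold, adjusted p = 1.11e-05). In xenografts against adherent cells GSS, glutathione synthetase, rose by 0.57 (1.49-fold, adjusted p = 0.00122). CHAC1, also a glutathione-degrading enzyme, rose more, by 1.30 (2.46-fold, adjusted p = 0.00541). The gene that fell was GLRX (log2 change -0.61, adjusted p = 0.00415). The calls of CHAC1 and GLRX were lost by the methods' t-test after adjustment.

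Of 5 peroxiredoxins measured, 3 fell in spheres, as GPX4 did. These 3 reduce peroxide with thioredoxin in place of glutathione. PRDX2 averaged 10.55 ± 0.29 in xenografts, 8.66 ± 0.06 in spheres and 10.03 ± 0.16 in adherent cells, a fall in spheres (log2 change -1.37, SE 0.14, 0.387-fold, adjusted p = 2.22e-05). PRDX1 fell to 11.16 ± 0.08 in spheres, against 12.26 ± 0.02 in adherent cells (log2 change -1.10, 0.467-fold, adjusted p = 2.81e-06), and PRDX3, of mitochondria, fell by 0.90 (0.535-fold, adjusted p = 1.56e-05). TXNIP, which binds and inhibits thioredoxin, rose by 1.38 in spheres (2.61-fold, adjusted p = 4.02e-06). Of the 13 genes of this list 1 rose and 4 fell in spheres against adherent cells (median -0.10), 6 rose and 2 fell in xenografts against adherent cells (median 0.13), and 9 rose and 2 fell in xenografts against spheres (median 0.38, beside 0.13 over all genes). Over all genes, 13.5% rose and 16.3% fell in the first comparison, 12.6% and 14.3% in the second, and 25.7% and 18.3% in the third. In xenografts against adherent cells CAT, catalase, rose by 0.47 (1.38-fold, adjusted p = 0.0102), while SRXN1, which repairs overoxidized peroxiredoxins, fell by 0.55 (log2 change -0.55, adjusted p = 0.00542).

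Among 13 genes of the lipid, iron and quinone side of ferroptosis, 1 rose and 6 fell in xenografts against adherent cells (median -0.17, beside 0.08 over all genes), and 2 rose and 3 fell in spheres (median -0.03). Over all genes, 12.6% rose and 14.3% fell in xenografts, and 13.5% rose and 16.3% fell in spheres. GCH1, which starts tetrahydrobiopterin synthesis, averaged 6.07 ± 0.12 in xenografts, 7.32 ± 0.06 in spheres and 7.24 ± 0.15 in adherent cells, a fall in xenografts (log2 change -1.17, 0.445-fold, adjusted p = 2.11e-05). TFRC, the transferrin receptor, averaged 11.74 ± 0.05 in xenografts, 12.16 ± 0.10 in spheres and 12.53 ± 0.07 in adherent cells, and fell in both (log2 change -0.80, adjusted p = 1.14e-04, in xenografts and -0.37, adjusted p = 0.0102, in spheres). FTL, ferritin light chain, averaged 12.49 ± 0.02 in xenografts, 13.21 ± 0.04 in spheres and 12.66 ± 0.04 in adherent cells, and rose in spheres (log2 change 0.55, 1.47-fold, adjusted p = 3.32e-04). The gene that rose in xenografts, ALOX15, a lipoxygenase, lay below the median brightness of the array (5.41 ± 0.52, against 4.06 ± 0.08 in adherent cells, adjusted p = 6.55e-04).

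**Figure D4:**
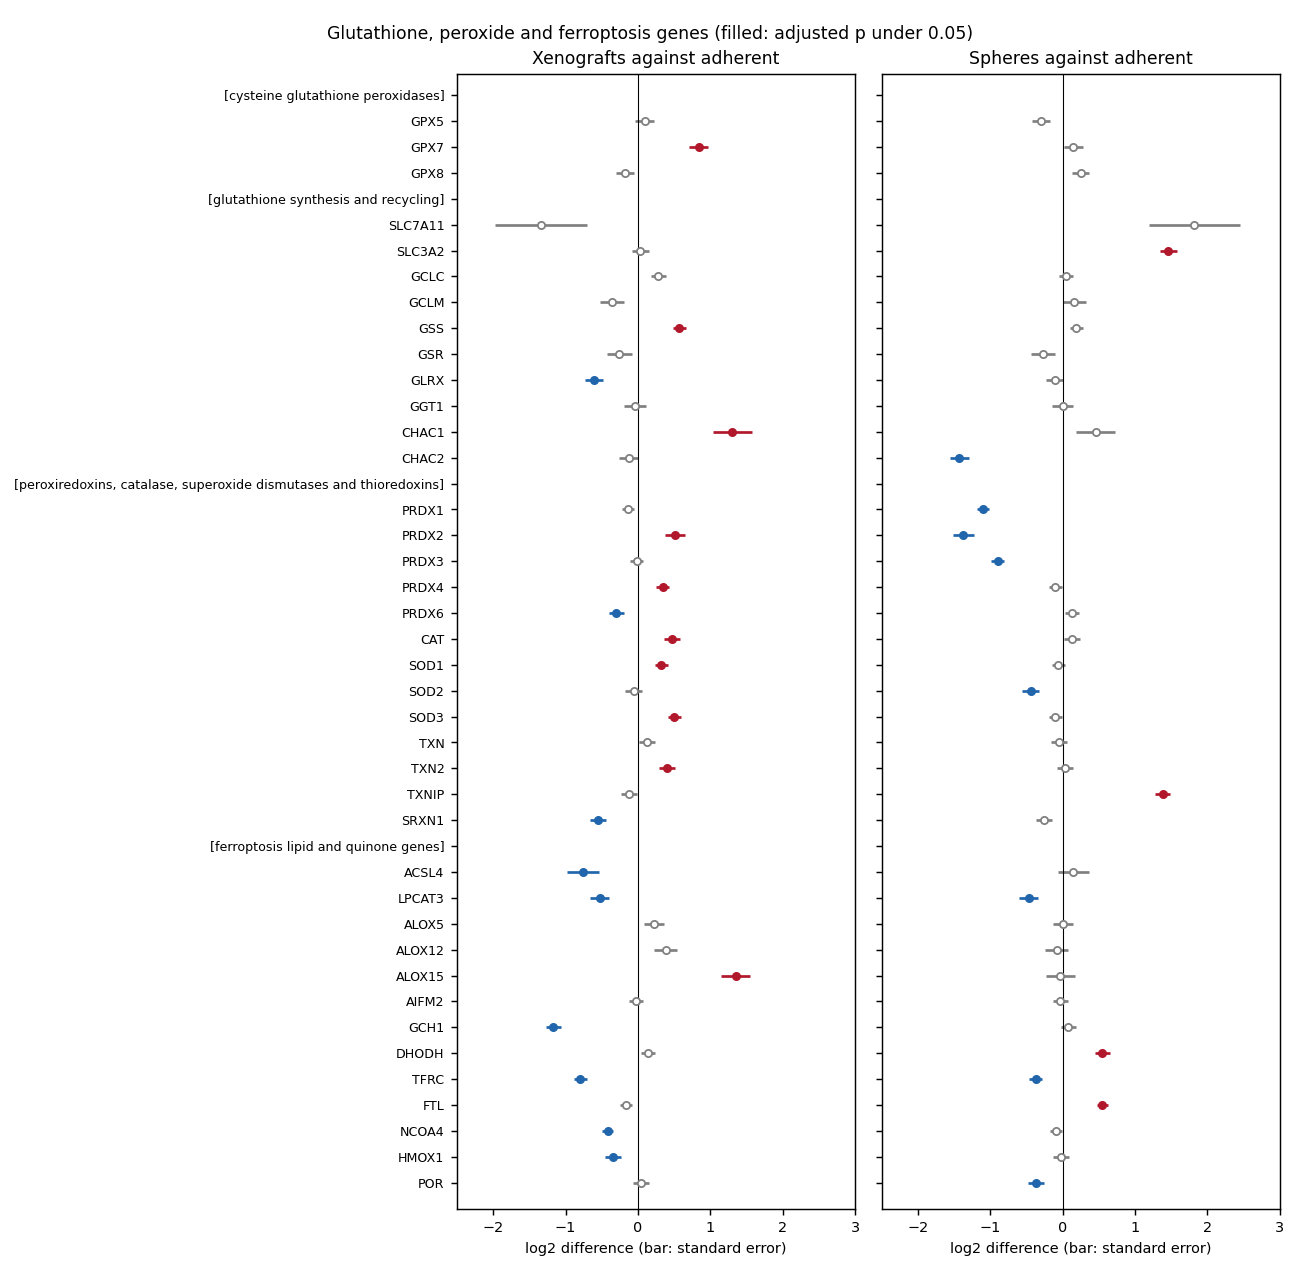
Circles give the log2 difference and bars the standard error for cysteine glutathione peroxidases, glutathione genes, peroxiredoxins and related enzymes, and ferroptosis genes, for xenografts and spheres against adherent cells, filled where the adjusted p was under 0.05. PRDX1, PRDX2 and PRDX3 lie at -1.10, -1.37 and -0.90 in spheres against adherent cells.

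Genes of other cell types that xenografts may hold were also measured. Against adherent cells, 2 of 11 macrophage genes rose, but 10 of the 11 lay below the median brightness of the array and the list averaged 3.87 to 3.93 in xenografts, 3.52 to 3.59 in spheres and 3.62 to 3.70 in adherent cells. Of 10 fibroblast genes 5 rose, 1 fell and 4 were not called. The largest rise was that of LUM, a collagen-binding proteoglycan, at 7.11 in xenografts, 4.11 in spheres and 4.29 in adherent cells. The gene that fell was PDGFRB (log2 change -0.81, adjusted p = 1.05e-04). PDGFRA (-0.05) and THY1 (0.01) were among those not called. Of 8 endothelial genes 1 rose, as did 1 of 7 adipocyte genes and 1 of 2 blood genes, and none of these fell. Over all genes, 12.6% rose and 14.3% fell in xenografts against adherent cells. The median change was 0.24 for the macrophage list, 0.44 for fibroblasts, 0.22 for endothelium, 0.23 for adipocytes and 0.28 for blood, beside 0.08 over all genes.

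The genes whose pattern was most like GPX4 over the 9 arrays, among 12683 genes at or above the median brightness, were COMMD5 (Pearson r = 0.994), SKIC8 (r = 0.993) and RAN (r = 0.993), and 272 genes exceeded 0.95. For SELENOW they were APRT (r = 0.994), HES1 (r = 0.988) and HELQ (r = 0.985), and 66 genes exceeded 0.95. These values describe 9 points that fall in 3 groups. On the brightest probe set of each gene, the ranges of the group means were 1.26 for GPX4, 0.74 for SELENOW, 0.564 for SELENOK, 0.536 for GPX3, 0.398 for GPX1, 0.396 for SELENOH, 0.372 for SELENOP and 0.269 for SELENOM. Another probe set would change that order: the SELENOP means on 231669_at were 6.24 in xenografts, 5.89 in spheres and 6.85 in adherent cells, and the SELENOW means on 201194_at were 10.27, 9.53 and 9.35 in the same order.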

How the data were processed

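Per the labels, total RNA was amplified, biotin-labelled and hybridized to Affymetrix U133 Plus 2.0 arrays, 9 in all. The authors normalized the arrays by RMA (its version is not given in the sources used here) and deposited log2 values per probe set. RMA subtracts background, quantile-normalizes and summarizes probes, so differences in total RNA are removed and dim values are compressed. No detection calls or scan dates were used here, and the number of arrays limits the precision.

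With 62 control probe sets set aside, 54613 entered 1 model in limma 3.58.1 (R 4.3.3), with a coefficient for each group, 6 residual degrees of freedom and moderated variances (lmFit, then eBayes). Benjamini-Hochberg adjustment ran over all 54613, with a threshold of 0.05, and confidence intervals are at 95%. The fit was also run on simulated data, after the fits of the real arrays, and no result given here rests on that run. Symbols came from the array annotation: 41091 probe sets had 1 symbol, 1801 several and 11721 none, and none of the single symbols needed updating. For counts by gene, and for every gene outside the 8 described, a gene was read from its brightest probe set with 1 symbol.

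The members, the 15 gene lists and the tests were chosen with earlier results of these data known. Named are all members, up to 4 called genes per list and comparison, with fewer where space is short, and the 3 genes most correlated with the 2 members of widest range. From the muscle and fibroblast marker lists, ACTA1, MYH4, CKM, MB, LUM, PDGFRB, PDGFRA and THY1 are named after their values were seen. Muscle genes such as CKM also read above the array median in the Rh30 cultures, so they do not mark other cells alone. Alternatives were quantile normalization, median centring, leaving out dim probe sets, a fit on only the pair compared, robust estimation with a variance trend, the methods' t-test, a block for the replicate number, the mean of a gene's probe sets, and each array left out in turn. The same alternatives, other than the mean of a gene's probe sets, were added for single genes outside the members after seeing the data. Promoters came from RefSeq, GRCh38.p14.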

Additional observations from a re-analysis of the deposited data

How the results depend on the processing

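In spheres against adherent cells, 4 of the 17 probe sets were called (2 higher, 2 lower), and the count was 6 under quantile normalization (4 higher, 2 lower), 6 with dim probe sets left out, 6 with the compared groups alone, 9 with a variance trend and robust estimation (6 higher, 3 lower), 10 by the methods' t-test (7 higher, 3 lower) and 7 by that test after Benjamini-Hochberg adjustment. In xenografts against adherent cells, 12 were called, and 13 by the methods' t-test but 7 after adjustment (6 higher, 1 lower). In xenografts against spheres 11 were called, and 12 and 8 by that test. After adjustment that test lost 9 calls: in xenografts against adherent cells GPX1, GPX3 201348_at, GPX4, SELENOP 229620_at and SELENOH 1557799_at, in xenografts against spheres GPX3 201348_at, SELENOP 231669_at and SELENOH 228331_at, and in spheres against adherent cells SELENOH 228331_at. With 1 array left out, the counts were 3 to 6, 9 to 12 and 9 to 11 in the order the comparisons are given above. The share of all probe sets called under each alternative was not counted. These counts therefore show how calls of the members shift, and not whether the members shift more than other probe sets. The methods' t-test is unadjusted where adjustment is not named. Of 858 recomputed probe-set differences, 780 kept direction and side of the threshold, 33 gained a call, 37 lost it and 8 changed sign. The 8 were all of differences not called: GPX3 214091_s_at in xenografts against spheres (-0.01 under quantile normalization, -0.08 to 0.18 with arrays left out), SELENOP 201427_s_at in the same comparison (-0.01 to 0.22), SELENOM in spheres against adherent cells (-0.02 under median centring, -0.01 to 0.05) and SELENOH 228331_at in xenografts against adherent cells (-0.14 to 0.05). The cause was not tested.

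Replicate numbers did not pair the arrays: 2 of 9 deviated most like the array of the same number in another group (correlations -0.1768 to 0.1831). With the replicate number as a block the counts were 4, 11 and 11, and the lost call was GPX1 in xenografts against adherent cells (adjusted p = 0.0619). Of 75 changes in genes outside the 8, 49 were called under every alternative run for them and none changed sign. The mean of a gene's probe sets was not among these alternatives, so other probe sets of these genes were not checked 1 by 1. With 3 arrays a group and 1 cell line, small differences and dim probe sets such as SELENOM are the least certain.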
